A study of Mus musculus with 6 samples.

Results

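The PDGF system of fibroblasts was followed here through 7 genes, the ligand genes Pdgfa, Pdgfb, Pdgfc and Pdgfd, the receptor genes Pdgfra and Pdgfrb, and the receptor-like gene Pdgfrl. Its members were the array probes whose gene name in the files is one of these symbols, which gave 9 of 55681 probes. The cells were 3T3, an established line of mouse embryonic fibroblasts, grown in medium with fetal bovine serum. Cultures received 50 nM of either GapmeR Ntep or GapmeR control by transfection, and RNA was taken 48 h later. GapmeRs are antisense oligonucleotides through which RNase H cuts a matching RNA, here the lncRNA Ntep, and the control was a GapmeR sold as a negative control. Each of 3 independent experiments gave 1 array per GapmeR, 6 arrays in all, and total RNA of each culture was measured in 1 color. Both groups went through transfection, and cells that were not transfected were not analysed here.

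Platelet-derived growth factors are secreted dimers that make fibroblasts and other mesenchymal cells divide, migrate and deposit matrix. The A, B, C and D chains bind the receptor tyrosine kinases PDGFRα and PDGFRβ, and binding pairs the receptors and starts RAS-MAPK, PI3K, PLCγ and STAT signalling. PDGFRα binds the A, B and C chains and PDGFRβ the B and D chains, the C and D chains need cleavage by proteases before they can bind, and serum itself carries PDGF from platelets.

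Of the 9 probes, 7 were bright enough to be compared, and they cover 6 of the 7 genes. On the arrays labelled GapmeR Ntep, Pdgfa was higher in each of the 3 experiments, by 1.64- to 1.90-fold, and both receptor genes were lower in each. Pdgfra was at 0.365 to 0.663 and Pdgfrb at 0.459 to 0.681 of the matching control array. Pdgfrl and Pdgfc were also lower in each experiment, and Pdgfb had no common direction. Over the unpaired groups no member passed the test, and for most of them the experiments differed from each other at least as much as the labels did. With experiments as blocks, Pdgfa passed.

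The targeted RNA was measured by 1 probe, A630089N07Rik on chromosome 16 (bases 98283712 to 98283771, mm9). In experiments 1, 2 and 3 its normalized intensity was 471.9, 91.45 and 226.2 where the label was GapmeR Ntep, and 271.4, 272.4 and 361.2 where it was GapmeR control. The log2 difference of -0.48 (SE 0.58) was within the spread between replicates (limma adjusted p = 0.632), and experiment 1 went against its label. By qPCR, the study itself reported less Ntep RNA in 3T3 cells after 48 h of this GapmeR. On the arrays of experiment 1 the collagen genes Col1a1 and Col3a1 differed by -0.53 and -1.15, the same direction as in experiments 2 and 3. Other genes changed direction. Ccn1 differed by -0.23, 1.63 and 1.30 in experiments 1, 2 and 3, and Ccn2 by -0.47, 2.03 and 2.40. Directions below are those of the labels. Between 43.7% and 53.3% of all probes were well above background on an array. Of 10 fibroblast markers, 7 were well above background on all 6 arrays, among them Col1a1, Col1a2 and Vim, while Lum, a matrix proteoglycan, was so on 1 array. Their summed intensity was 552800 to 732400 on the arrays labelled GapmeR Ntep and 801700 to 883600 on the control arrays, without overlap. Of all single tested probes, 15.1% were separated in this direction. Bright genes weighed heavily in the sum, such as Col1a2, which read 166300, 185000 and 155600 on the control arrays. Of 9 tested markers 8 were lower and 1, Thy1, was higher (0.05), and 0 of the 9 passed after adjustment in the unpaired fit. With experiments as blocks 1 fell, Dcn, with differences of -1.49, -1.80 and -2.22 in experiments 1, 2 and 3 (adjusted p = 0.0310). Dcn was well above background on 4 of the 6 arrays. In experiment 1 it was dim, at 34.54 under GapmeR Ntep and 97.13 under GapmeR control. In RNA from whole cultures, fewer expressing cells and less RNA per cell cannot be told apart.

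Pdgfa encodes the A chain, which acts through PDGFRα. RefSeq gives it 2 start windows, and the more upstream one is shown together with that of Pdgfra, its receptor. Both sequences are RefSeq promoters of GRCm38.p6, 250 bases before to 50 bases after the annotated start, read 5′ to 3′ on the gene's strand. Capitals mark matches to the GC box GGGCGG on either strand, the only searched motif found in them.
Pdgfa (chr5:138994895-138995194, minus strand): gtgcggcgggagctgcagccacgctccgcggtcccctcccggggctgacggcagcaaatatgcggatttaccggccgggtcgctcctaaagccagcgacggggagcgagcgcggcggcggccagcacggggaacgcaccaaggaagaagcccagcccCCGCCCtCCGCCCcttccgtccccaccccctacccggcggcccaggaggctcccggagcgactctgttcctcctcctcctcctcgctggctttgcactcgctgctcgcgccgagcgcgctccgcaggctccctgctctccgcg
Pdgfra (chr5:75152001-75152300, plus strand): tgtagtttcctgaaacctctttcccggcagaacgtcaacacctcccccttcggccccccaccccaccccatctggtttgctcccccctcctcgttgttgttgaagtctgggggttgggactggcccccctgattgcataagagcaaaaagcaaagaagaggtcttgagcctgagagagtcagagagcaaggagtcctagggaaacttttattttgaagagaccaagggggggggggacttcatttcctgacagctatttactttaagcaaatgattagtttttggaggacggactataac
The Pdgfa window shown was 73.3% G or C and held 2 GC boxes, at 93 and 86 bases before the start, while its other window (chr5:138994232-138994531) was 67.0% G or C and held 1, at 60 bases before the start. The Pdgfra window was 51.0% G or C and held none, where the median window was at 52.7% and 35.7% of all 32851 windows held at least 1 GC box. None of these windows held the Egr motif GCGNGGGCG (in 5.6% of windows), the AP-1 motif TGANTCA (7.8%), CCAAT (37.4%) or TATAAA (13.6%). Windows were found for 4 of the 7 genes. A match of letters is a description and shows no binding.

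For Pdgfa there were 2 probes, A_55_P2007470 (chromosome 5, bases 139452934 to 139452993, mm9) and A_55_P2125588 (bases 139452925 to 139452984). They share 51 bases and are not independent measurements. The first probe read 39170, 14900 and 18190 under GapmeR Ntep in experiments 1, 2 and 3. On the control arrays it read 21560, 9079 and 9599. The groups overlapped, since the control array of experiment 1 was brighter than the GapmeR Ntep arrays of experiments 2 and 3, yet within each experiment the GapmeR Ntep array was the brighter one. The group means were 24090 ± 13200 and 13410 ± 7060 (SD, n = 3 each). The log2 difference was 0.83 (SE 0.50, 95% confidence interval -0.38 to 2.04), and limma gave an adjusted p of 0.351. The overlapping probe gave 0.78 (SE 0.49, adjusted p = 0.369).

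Within experiments 1, 2 and 3 the Pdgfa difference was 0.86, 0.72 and 0.92 on the log2 scale, a narrow range beside the 2.37-fold range among the control arrays. Same-numbered arrays come from the same experiment, so a fit with experiments as blocks was run beside the unpaired one. In it the standard error of Pdgfa fell to 0.14 (95% confidence interval 0.46 to 1.21) and the adjusted p was 0.0403, with 0.0445 for the overlapping probe. Pdgfa thus rose by the blocked test and missed the threshold by the unpaired test. With blocks, 6.54% of all probes passed as higher and 7.31% as lower.

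Pdgfb encodes the B chain, which binds both receptors. Its brighter probe, A_55_P2047310 (chromosome 15, bases 79826376 to 79826435), read 1323, 1665 and 1552 on the arrays labelled GapmeR Ntep and 2102, 1256 and 1546 on the control arrays. The groups overlapped completely, with the lowest and the highest value both on control arrays. The log2 difference of -0.09 (SE 0.24, 95% confidence interval -0.67 to 0.50) had a limma adjusted p of 0.849. By experiment it was -0.67, 0.41 and 0.01, so experiment 1 stood opposite to experiment 2. The other Pdgfb probe, at bases 79827438 to 79827497, was well above background on 2 of the 6 arrays and was too dim to be tested.

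Pdgfc encodes the C chain, one of the ligands that a protease must activate, and acts through PDGFRα. Its probe, A_52_P376360 (chromosome 3, bases 81017572 to 81017631), read 2127, 3371 and 2871 under GapmeR Ntep in experiments 1, 2 and 3. On the control arrays it read 4509, 3827 and 4166. Every GapmeR Ntep array was dimmer than every control array, the only such separation among the 6 tested genes. Across all tested probes, 15.1% were separated in this direction and 17% in the other.

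The group means of Pdgfc were 2790 ± 626 and 4167 ± 341 (SD, n = 3 each). Its log2 difference, -0.60 (SE 0.22, 95% confidence interval -1.14 to -0.06), had an unadjusted limma p of 0.0343 and an adjusted p of 0.163. By an exact two-sided permutation test p was 0.1, the smallest that 3 against 3 arrays allow. By experiment the difference was -1.08, -0.18 and -0.54. The blocked adjusted p was 0.148. Among the 6 tested genes Pdgfc had the tightest control arrays, whose highest value was 1.18 times the lowest.

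Pdgfd, the other ligand that needs proteolytic activation, was not well above background on any of the 6 arrays, with intensities of 20 to 37.19. No difference is given for it.

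Pdgfra encodes PDGFRα, the receptor for the A, B and C chains and a common surface marker of fibroblasts. Its probe, A_51_P345649 (chromosome 5, bases 75593888 to 75593947), read 448, 1915 and 778 under GapmeR Ntep in experiments 1, 2 and 3. On the control arrays it read 675.4, 3357 and 2130. Experiment 1 was lowest and experiment 2 highest under both labels, and the groups overlapped. The control arrays alone spanned 4.97-fold, the widest span among the 6 tested genes.

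The Pdgfra means were 1047 ± 770 and 2054 ± 1340 (SD, n = 3 each). The log2 difference was -0.95 (SE 0.76, 95% confidence interval -2.81 to 0.90), with a limma adjusted p of 0.480. By experiment it was -0.59, -0.81 and -1.45. The experiment with the lowest control level thus had the smallest difference. With experiments as blocks the standard error was 0.22, the unadjusted p 0.0124 and the adjusted p 0.0644, still above the threshold.

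The Pdgfra probe was printed at 10 spots per array, which separates spot error from the differences between cultures. Before normalization the 10 spots averaged 390.7, 2045 and 736.4 on the arrays labelled GapmeR Ntep and 662.9, 3793 and 2082 on the control arrays. The coefficient of variation between spots was 4.51% to 8.55%. In each experiment the brightest of the GapmeR Ntep spots was below the dimmest control spot, in experiment 1 for example 428.9 against 630.3. Spots of 1 array share 1 culture and show only how precisely that array was read.

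**Figure D1:**
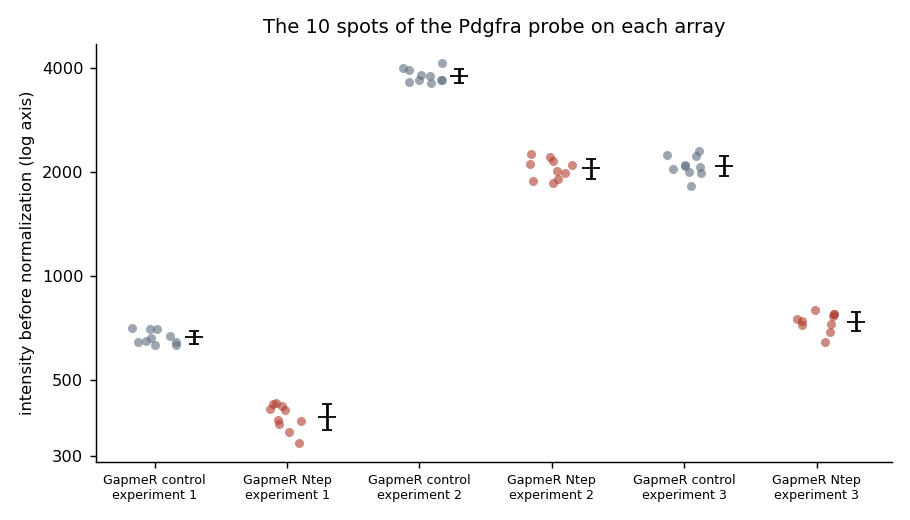
Intensity of each of the 10 spots of the Pdgfra probe before normalization (log axis) for the 6 arrays in order of experiment, with mean and SD over spots in black. Spots of 1 array lie close together (coefficient of variation 4.51% to 8.55%), while control arrays of different experiments average between 662.9 and 3793.

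Pdgfrb encodes PDGFRβ, the receptor for the B and D chains, which is also used to mark pericytes. Its probe lies on chromosome 18 and read 1946, 3434 and 2351 under GapmeR Ntep in experiments 1, 2 and 3. On the control arrays it read 2857, 5255 and 5126. Only the GapmeR Ntep array of experiment 2 lay above any control array, that of experiment 1. The means were 2577 ± 769 and 4413 ± 1350 (SD, n = 3 each).

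The log2 difference of Pdgfrb was -0.76 (SE 0.34, 95% confidence interval -1.59 to 0.06), with a limma adjusted p of 0.226. By experiment it was -0.55, -0.61 and -1.12. The blocked adjusted p was 0.0664. As for Pdgfra, experiment 3 showed the largest difference and experiment 1 the smallest. Of 6 smooth muscle and pericyte markers, Acta2 and Des were well above background on all 6 arrays and Rgs5 and Myh11 on none, and 0 of 4 tested passed after adjustment in the unpaired fit. Notch3, well above background on 4 arrays, differed by -2.99, -1.77 and -3.84 by experiment and passed with blocks (adjusted p = 0.0378). Of the 4 tested, 2 were lower and 2 higher. Des differed by -0.95, Acta2 by 0.36 and Cnn1, well above background on 3 arrays, by 1.14. The part of these markers in the Pdgfrb difference was not tested.

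Pdgfrl encodes a receptor-like protein that has extracellular immunoglobulin domains but no kinase. Its probe, A_51_P466229 (chromosome 8, bases 42075859 to 42075918), read 1215, 2305 and 1308 under GapmeR Ntep in experiments 1, 2 and 3. On the control arrays it read 1490, 3628 and 1963. The groups overlapped, and the array labelled GapmeR Ntep of experiment 2 was brighter than the control arrays of experiments 1 and 3. The log2 difference of -0.51 (SE 0.41, 95% confidence interval -1.52 to 0.50) had a limma adjusted p of 0.484 and a blocked adjusted p of 0.0969. By experiment it was -0.29, -0.65 and -0.59.

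**Figure D2:**
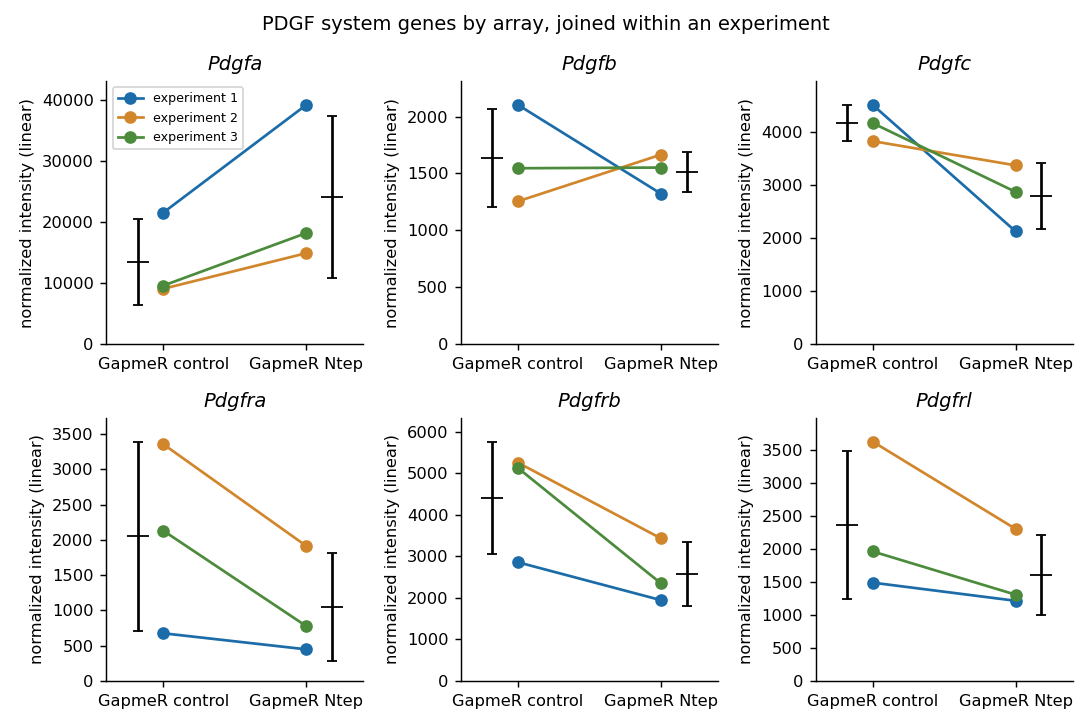
Normalized intensity (linear axes from 0) of the 6 tested genes on the 6 arrays, with lines joining the arrays of 1 experiment and group means with SD (n = 3) in black. Pdgfa is higher and Pdgfra, Pdgfrb, Pdgfrl and Pdgfc are lower at the GapmeR Ntep end of all 3 lines, while the lines of Pdgfb cross. Pdgfa is represented by the brighter of its 2 probes.

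Set side by side, 4 of the 6 tested genes were lower and 1 was higher in all 3 experiments. Among all tested probes, 26.7% were lower and 32.4% higher in each experiment. The median log2 difference was -0.55 over the 6 genes, against 0.00 over all tested genes. After Benjamini-Hochberg adjustment over all tested probes in the unpaired limma fit, 0 of 7 member probes were called, where 5.3% of all probes were (2.09% higher, 3.21% lower). At an unadjusted p under 0.05 there was 1, Pdgfc, against 25% of all probes. When a fold of 2 or more and an unadjusted p under 0.01 were required, 0 of 7 were called, where 8.13% of all probes were. With experiments as blocks, 2 of 7 passed after adjustment, both for Pdgfa, against 6.54% of all probes as higher and 7.31% as lower. An unadjusted p under 0.05 was found for 5 of 7, against 35.7% of all probes. The block lowered the standard error by 3.62 times for Pdgfa and 3.41 times for Pdgfra, but not for Pdgfb and Pdgfc.

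**Figure D3:**
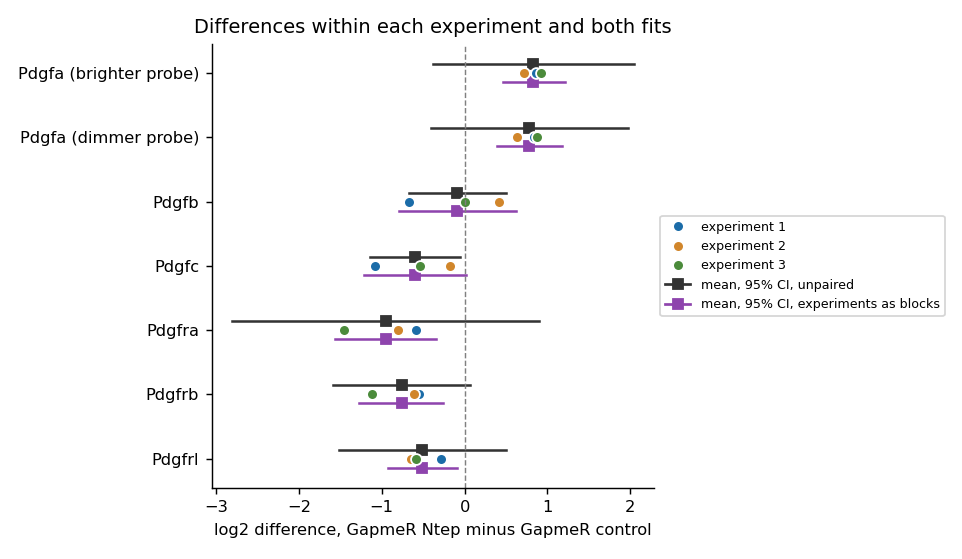
Log2 difference of the 7 tested member probes (arrays labelled GapmeR Ntep minus GapmeR control), with colored points for the 3 experiments and squares with 95% confidence intervals for the unpaired fit (dark) and the fit with experiments as blocks (purple). The interval of Pdgfra runs from -2.81 to 0.90 unpaired and from -1.57 to -0.34 with blocks, while both intervals of Pdgfb include 0.

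In a ratio between members of the same array a common factor of that array cancels, although quantile normalization, which depends on intensity, does not. After the values above had been seen, 4 such ratios were computed. Under GapmeR Ntep the log2 ratio of Pdgfa to Pdgfra was higher by 1.45, 1.52 and 2.38 in experiments 1, 2 and 3 (mean 1.78 ± 0.51, SD, n = 3). That of Pdgfa to Pdgfrb was higher by 1.42, 1.33 and 2.05. The ratio of Pdgfra to Pdgfrb differed by -0.04, -0.20 and -0.33, a shift of -0.19 on average. The ratio of Pdgfc to Pdgfra differed by -0.49, 0.63 and 0.92, with no common direction. Exact permutation tests over the unpaired arrays gave two-sided p of 0.3, 0.2, 0.7 and 0.8, where 3 against 3 arrays cannot fall below 0.1.

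Each member's pattern over the 6 arrays was compared with 16489 probes that were well above background on every array. The closest 3 genes to Pdgfra were Akr1b10, Tctn1 and Adam11 (Pearson r = 0.999, 0.998 and 0.997), and to Pdgfrb Rps3a1, Col6a1 and Cavin4 (0.999, 0.999 and 0.998). Pdgfrl was closest to Tmcc1, Npepps and Bnip3l (0.993, 0.981 and 0.980). Of the ligands, Pdgfa was closest to Dnajb11, Gxylt1 and Gm2016 (all 0.997), Pdgfc to Ergic3, Ctif and Abcb6 (0.997, 0.997 and 0.996) and Pdgfb to Cma2, Uxt and 9330179D12Rik (0.990, 0.988 and 0.976). Over 6 arrays high values are common, since 529 probes exceeded 0.95 with Pdgfa and 263 with Pdgfra, against 10 with Pdgfb. All of these share the same arrays and label difference.

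Around the receptors, 7 lists with 102 genes of PDGF signalling were read with the brightest probe per gene. Of 95 tested genes, 6 rose and 3 fell after adjustment, against 2.33% and 3.68% of all tested genes, and their median log2 difference was 0.04. With experiments as blocks 12 rose and 8 fell, against 7.13% and 8.91% of all tested genes. The unpaired fit of all 6 arrays called 9 list genes and 1642 of all tested probes. Without the control array of experiment 1, 2 or 3, 0 list genes passed, where 111, 0 and 3 of all probes did. Without the GapmeR Ntep array of experiment 3, 0 list genes and 0 of all probes passed. Without that of experiment 1, 4 genes and 432 probes passed, and without that of experiment 2, 9 genes and 1327 probes. The list counts thus moved with those of all probes.

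Among genes that process the ligands or hold them at the cell, 1 of 8 tested rose and 1 fell. Plau, the protease urokinase, rose by 2.33 (SE 0.41, limma adjusted p = 0.0363). It read 447.4, 156.4 and 232.3 on the arrays labelled GapmeR Ntep and 60.59, 49.72 and 42.46 on the control arrays, and was well above background on 1 of the 3 control arrays. Nrp1, a coreceptor for PDGF and VEGF, fell (adjusted p = 0.0185) from 115, 133.7 and 126 on the control arrays to values that were not well above background on any GapmeR Ntep array, which makes it at least 2.51-fold lower. This bound sets each dim array at the lowest intensity found well above background there. Lrp1, an endocytic receptor that associates with PDGFRβ, differed by -1.21 (adjusted p = 0.0509, blocked 0.0408), and Furin, a proprotein convertase, by 0.76 (adjusted p = 0.123).

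Of the related receptors and ligands, 0 of 4 and 2 of 8 tested genes passed, both ligands falling. Vegfc fell by 1.60 (SE 0.27, limma adjusted p = 0.0347) and Flt3l, a hematopoietic growth factor, fell by 1.28 (SE 0.16, adjusted p = 0.0243). Vegfd, a close relative of Vegfc, differed by -1.38 (adjusted p = 0.0669) and Csf1 by -1.06 (adjusted p = 0.188). Kitl, the KIT ligand, differed by 0.97 (adjusted p = 0.149) and passed with blocks (0.0468), a gene named after its values were seen. Csf1r, the CSF1 receptor and a close relative of the PDGF receptors, differed by 3.19 (SE 1.12, adjusted p = 0.151, blocked 0.0387), with 1.80, 3.97 and 3.79 by experiment. The VEGF receptor genes Flt1 and Kdr differed by -1.26 (adjusted p = 0.0509, blocked 0.0369) and 0.41 (adjusted p = 0.184). Flt4 was well above background on 1 array only. Beside Csf1r, the summed intensity of 6 macrophage markers was 40200 to 70310 on the arrays labelled GapmeR Ntep and 19750 to 25980 on the control arrays. Of these, Cd68 rose by 1.21 (adjusted p = 0.0287), 1 of 4 tested, against 2.33% of all tested genes. Itgam differed by 1.26 (adjusted p = 0.0881, blocked 0.0397) and Cd14 by 1.11 (adjusted p = 0.0627, blocked 0.0332), and with Cd68 they were well above background on all 6 arrays and higher in each experiment. With experiments as blocks 3 of 4 rose, against 7.13% of all tested genes. The remaining tested marker, Lyz2, was well above background on 3 arrays and differed by 0.32, -0.19 and -0.67 by experiment. Itgam alone read 45780, 19440 and 30880 on the arrays labelled GapmeR Ntep and 14650, 10650 and 12950 on the control arrays. It thus weighed heavily in the summed intensity. The defining markers Adgre1 and Ptprc were not well above background on any array. The part of these markers in the Csf1r difference was not tested.

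Genes that bind the activated receptors showed no calls, with 0 of 21 adaptors and enzymes passing and a median of -0.04. The largest differences were in Pik3r1, the regulatory subunit of PI3K (-1.07, limma adjusted p = 0.0699), Nck2 (-0.83, 0.161), Crkl (0.56, 0.251) and Plcg1 (-0.56, 0.175). Among 12 tested negative regulators none passed in the unpaired fit. Ptpn1, which encodes a tyrosine phosphatase and was named after its values were seen, differed by 0.77 (adjusted p = 0.0544) and passed with experiments as blocks (adjusted p = 0.0415). Cblb, a ubiquitin ligase of the family that marks receptors for degradation, differed by -2.80 (SE 0.97, adjusted p = 0.147), and the RAS-MAPK inhibitors Spred2 and Spred1 by -1.67 (0.153) and -1.03 (0.0676). Experiment 1 differed most. Cblb, well above background on 5 of the 6 arrays, differed by -4.73, -1.59 and -2.09 by experiment, and Spred2 by -3.33, -0.95 and -0.74. Spry1, another feedback inhibitor, differed by 5.47 in experiment 1 but by -0.40 and 0.23 in experiments 2 and 3. Of 21 downstream kinases and effectors, 1 rose, the small GTPase gene Nras (1.03, SE 0.19, adjusted p = 0.0398). The largest difference was in Prkca (-1.43, adjusted p = 0.0640, blocked 0.0442), and Rps6kb1 (-0.95, 0.0699, blocked 0.0444) and Braf (-0.85, 0.137) came after Nras. Mtor, named after its values were seen, differed by 0.71 and passed with blocks (adjusted p = 0.0492).

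The genes that serum and PDGF are known to induce in fibroblasts held 4 of the 6 rises, in 21 tested genes with a median of 0.90. This list, like the others, was chosen with earlier results of these data known, so its count is a description. Egr1 and Egr2, zinc finger transcription factors, rose by 2.43 (SE 0.31, limma adjusted p = 0.0255) and 1.79 (SE 0.35, adjusted p = 0.0467). The AP-1 genes Fosb and Jun rose by 2.46 (SE 0.30, adjusted p = 0.0243) and 1.91 (SE 0.30, adjusted p = 0.0320). Fosl1, also an AP-1 gene, differed by 2.66 (SE 0.69, adjusted p = 0.0797, blocked 0.0310). Atf3, named after its values were seen, differed by 1.24 (adjusted p = 0.115, blocked 0.0360). Egr1 differed by 3.14, 2.11 and 2.04 in experiments 1, 2 and 3, so that it was higher in all of them, as Pdgfa was, while Pdgfra and Pdgfrb were lower. By mean difference 17 of 21 such genes were higher and 4 lower, where the median over all tested genes was 0.00. Not all 17 were higher in each experiment. Fos, named after its values were seen, differed by 1.67 (limma adjusted p = 0.352), and by 4.71, -0.07 and 0.37 by experiment. Egr3, well above background on 1 array, differed by 2.42, -0.32 and -1.21, and Ccn2 by -0.47, 2.03 and 2.40. The 4 genes with a lower mean, named after their values were seen, included 3 chemokine genes that PDGF and serum induce. These were Ccl7 (-1.14, limma adjusted p = 0.0815), Ccl2 (-0.62, 0.162) and Cxcl1 (-0.26, 0.58). The other was Btg2 (-0.52, 0.476), and none of the lower genes passed in either fit.

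**Figure D4:**
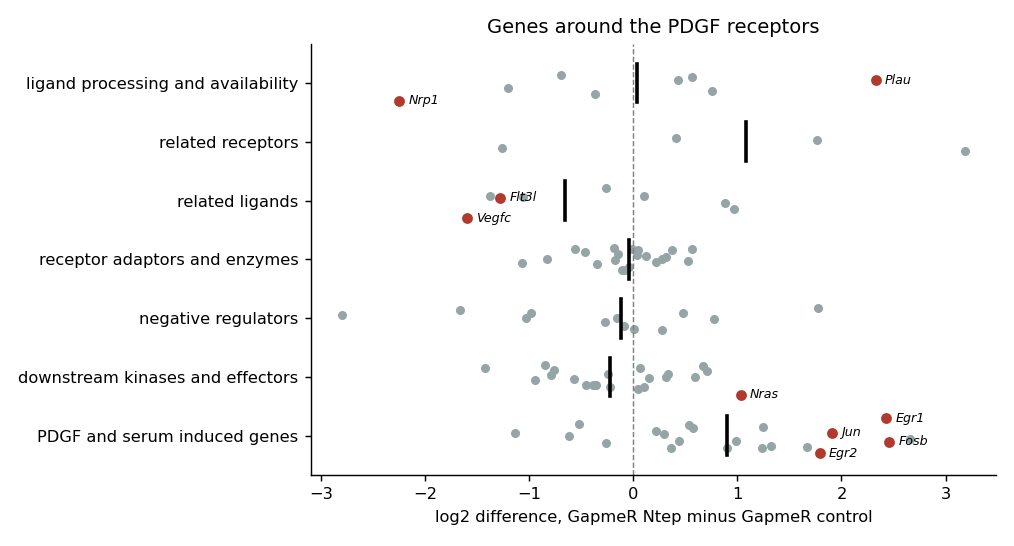
Log2 difference (arrays labelled GapmeR Ntep minus GapmeR control) of each tested gene in the 7 lists, with list medians as black bars and genes past the adjusted threshold named and in red. The list of PDGF and serum induced genes lies furthest to the right among the larger lists, with a median of 0.90 and 4 named genes, while adaptors and enzymes center on -0.04. The lists were chosen with earlier results of these data known.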

How the data were processed

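The 6 cultures of 3T3 cells were each measured on an Agilent mouse array (1 color, 1 slide for all). The array format and the dose (50 nM per the labels) are given differently in a supplementary sheet of the study. The authors scanned them with Feature Extraction (10.7.3.1 per the labels) and deposited background-subtracted intensity per spot, not normalized between arrays, and also quantile normalized intensities with a surrogate of 20 for low values. All are on a linear scale.

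Groups came from the labels. The mean over spots was taken for each probe and quantile normalization was applied between arrays, with a floor of 20. On the log2 scale, limma 3.58.1 (R 4.3.3, package data.table, version 1.17.8) was fitted without pairing, which follows the normalization, cutoff and unpaired comparison of the study. Testing was limited to 30990 probes whose mean reached 50 under either label, p-values are two-sided, and adjustment ran over all of them at 0.05. Quantile normalization assumes similar overall distributions. No spot was saturated, and the number of arrays limits precision. Residuals of same-numbered arrays, which the supplementary sheet pairs by culture day, correlated at 0.466, 0.300 and 0.254 (other pairs -0.327 to 0.126), so a fit with experiments as blocks was run. Alternatives were 75th percentile scaling, normexp with an offset of 50, the authors' values, floors of 5 and 50, other filters, outlier spots left out, trend with robust variance, array weights, the methods' t-test and the omission of each array. The unpaired fit was tried on simulated data with independent noise and no experiment effect. The fit with blocks and the other alternatives were not tested in this way.

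Named are all members, called list genes and up to 4 genes with the largest differences per list, the target, and the 3 genes most like each bright member. Members and lists were chosen with earlier results of these data known. Probe coordinates are mm9, symbols and promoters are RefSeq (GRCm38.p6, 31239 probes matched). Whether a probe lies in an exon or UTR was not annotated here. For lists, the brightest probe stands for a gene.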

Additional observations from a re-analysis of the deposited data

How the results depend on the processing

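Of 133 member values under 19 alternatives, 123 kept their direction and their side of the adjusted threshold. Both Pdgfa probes passed with experiments as blocks and with array weights, and Pdgfc (adjusted p = 0.0372) and Pdgfrb (0.0138) with array weights only. The replicate block thus gave 2 calls among the member probes and 20 among the pathway genes, and array weights gave 4 and 49, with 1 member probe past the fold limit. Array weights called 10260 of all tested probes and the block 4292, against 1642 in the reported fit. Pdgfb changed direction with array weights (0.10), without GapmeR Ntep replicate 1 (0.01), without GapmeR control replicate 1 (0.11, the highest when 1 array was left out, where the lowest was -0.26) and without both arrays of experiment 1 (0.21), an alternative chosen after seeing the data. Leaving out 1 array at a time moved Pdgfa from 0.42 to 1.24, Pdgfra from -1.61 to -0.46, Pdgfrb from -1.05 to -0.58, Pdgfc from -0.75 to -0.42 and Pdgfrl from -0.80 to -0.15. In these refits 0 members were called, where 0 to 1327 of all tested probes were. The pathway count of 9 became 18 with normexp, 22 with trend and robust variance, 4 without a filter on low values, 4 with the methods' t-test, 0 to 9 without 1 array, and 0 without both arrays of experiment 1. Over all tested probes the same fits called 2557, 2667, 564, 285, 0 to 1327 and 0, where the reported fit called 1642. The methods' t-test called 0 member probes at the study's own limits and 0 after adjustment, and 285 of all tested probes after adjustment. Scaling to the 75th percentile moved the median of all tested probes from 0.06 to 0.20 and member values by at most 0.14, Pdgfa to 0.97 among them. The cause of these shifts was not tested. Signals near background limit Pdgfd and the dimmer Pdgfb probe.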
